A study of Mus musculus with 10 samples.

Results

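The fibrous sheath is the cytoskeletal sleeve of the principal piece, the longest part of the sperm tail, and the genes described here encode 7 of its proteins: Akap4, Akap3, Cabyr, Ropn1, Ropn1l, Fsip1 and Fsip2. They were chosen by symbol, and 7 of 7 were found among the 15507 genes of the table. RNA was sequenced from germ cells of 5 wild-type (WT) mice and 5 GRTH knock-in (KI) mice aged 45 days, with 1 library per mouse. KI mice were homozygous and carried a human copy of GRTH, an RNA helicase also called DDX25, that bears the missense mutation R242H. WT mice kept the mouse gene. Germ cells were obtained by dispersing seminiferous tubules with collagenase and trypsin and straining the suspension, so that each preparation held spermatogonia, spermatocytes and spermatids together.

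The sheath is built late in sperm formation, in elongating spermatids, from long columns joined by ribs. AKAP4 and AKAP3 are its most abundant structural proteins, and as A-kinase anchoring proteins they hold protein kinase A at the sheath. ROPN1, ROPN1L and CABYR carry a domain like that of the kinase's regulatory subunit and bind the anchoring proteins, and FSIP1 and FSIP2 were named as partners of AKAP4. The sheath also holds glycolytic enzymes that supply ATP for movement.

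The libraries held 13323024 to 16422347 recovered reads on genes in WT and 12722086 to 15500582 in KI, and each of the 7 genes had at least 934 reads in every library. Levels are given as the authors' normalized counts, which are reads divided by a size factor of the library. Fold changes are on the log2(normalized count + 1) scale, and a gene is called lower or higher at an adjusted p under 0.05 (limma, Benjamini-Hochberg over 15389 genes) with a fold change of at least 1.5. Ddx25, the targeted mouse gene, read 5198 to 11101 in WT and 1.84 to 194 in KI. Reads were aligned to the mouse genome, so this value is not a measure of RNA from the human copy in KI. The prepared cells showed markers of spermatogonia, spermatocytes, round spermatids and elongating spermatids in every library, as well as markers of Sertoli, Leydig, peritubular myoid cells and macrophages, and none of the markers tested was at 0 in any library. Libraries numbered 4 and 5 of each genotype differ in mean read quality from libraries 1 to 3 in the sequencing summary of the study, and results that move with this division are given with it.

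Of the 7 sheath genes, 4 were called lower in KI (Akap4, Ropn1, Cabyr and Fsip1), where 8.22% of the genes tested were. The count called higher was 0 by limma, where 6.13% of genes were, and also 0 by edgeR, by DESeq2 and at an unadjusted p under 0.05. At the adjusted p alone Akap3 joined them, so that 5 of 7 were lower against 13.3% of genes. Every KI library lay below every WT library for the same 5 genes, against 10.9% of genes. The median log2 fold change of the 7 genes was -0.63, and that of all genes tested was 0.03. All 7 passed the filter on low counts with reads far above it in both genotypes.

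**Figure D1:**
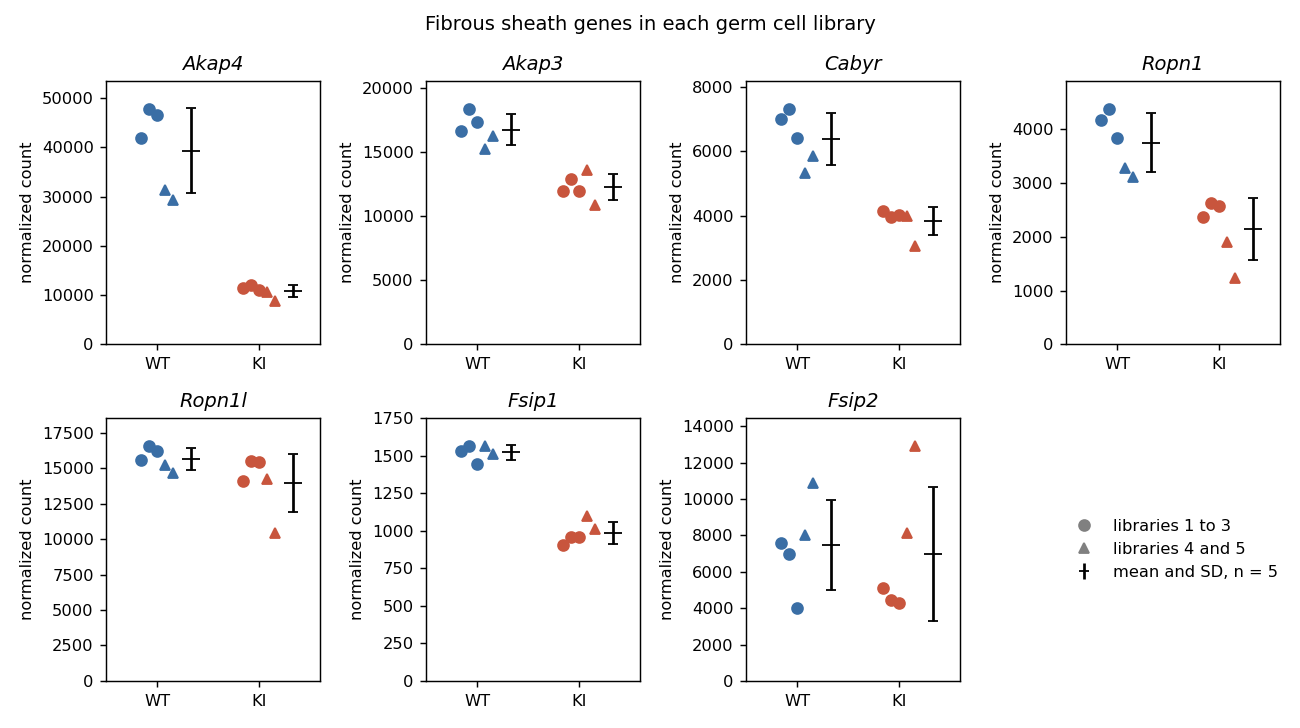
Normalized counts of the 7 sheath genes in each of 5 WT and 5 KI libraries, with 1 panel per gene, a vertical axis from 0, circles for libraries 1 to 3, triangles for libraries 4 and 5, and bars for the mean and SD. KI points lie below all WT points for Akap4, Akap3, Cabyr, Ropn1 and Fsip1, and overlap with them for Ropn1l and Fsip2.

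Akap4, which encodes the main structural protein of the sheath, fell most of the 7 at the RNA level. The gene lies on chromosome X (GRCm38, 7067515 to 7078606, plus strand) and is protein-coding. The annotated transcript used for its length has 6 exons and 2851 bases. Its normalized count was 41854.8, 47739.5, 46544, 31360.3 and 29270.3 in WT libraries 1 to 5, and 11382.7, 12036.8, 11012.2, 10569.2 and 8848 in the KI libraries. The highest KI library stood below the lowest WT library by a wide margin. The log2 fold change was -1.85 (SE 0.15, adjusted p = 4.44e-07), a level 3.60-fold lower. By mean normalized count, which also grows with transcript length, Akap4 ranked 16th of all genes in WT and 105th in KI, and only 3 genes lost more normalized counts. Among the 1265 genes called lower its fold change was the 161st largest. Of the 650 X-linked genes tested, 47, or 7.23%, were called lower, against 8.22% of all genes tested. Another 89 were called higher, where 6.13% of all genes were.

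Akap3, which encodes the partner anchoring protein that is laid down in the sheath before AKAP4, fell less. It lies on chromosome 6 (126853098 to 126874308, plus strand, 6 exons, 3153 bases of transcript). Its normalized count was 16617.6, 18310.3, 17301.8, 15172.6 and 16226.3 in WT and 11944.6, 12901.6, 11923.4, 13544.4 and 10864.8 in KI. The genotypes did not overlap, but the log2 fold change of -0.45 (SE 0.10, adjusted p = 0.00318) is 1.37-fold and does not reach the 1.5-fold threshold. The count of Akap4 divided by that of Akap3 in the same library is not corrected for length, and its change does not depend on how libraries are scaled. It was 2.31 on average in WT and 0.878 in KI, a difference of -1.40 in the log2 ratio (exact two-sided permutation test, p = 0.00794, adjusted p over 21 pairs of sheath genes = 0.0208). The ratio was lower in each of the 5 KI libraries than in any WT library.

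The RefSeq promoters of these 2 genes are shown because a run of 20 bases is common to both. Each stretch holds the 100 bases before the RefSeq start (GRCm38.p6), at chr6:126852998-126853097 on the plus strand for Akap3 and at chrX:7067415-7067514 on the plus strand for Akap4, and the shared run is in capitals.
Akap3: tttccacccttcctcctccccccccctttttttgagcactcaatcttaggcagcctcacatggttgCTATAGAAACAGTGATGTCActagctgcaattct
Akap4: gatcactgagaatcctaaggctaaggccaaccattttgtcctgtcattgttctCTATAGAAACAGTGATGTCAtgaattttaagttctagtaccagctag
The run ends 15 bases before the start of Akap3 and 28 bases before that of Akap4. No other pair of sheath promoters in the table shared more than 10 bases in a row, read on the strand of the gene over the whole window that the table gives around each start. Among all 32851 promoters of the table the 20-base run, searched on both strands, was in 2. It ends in the letters TGATGTCA, which were picked after the sequences were seen and were in 3.62% of promoters on either strand. The sheath promoters searched were those of Akap3, Akap4, Ropn1, Ropn1l and Fsip2, and not those of Fsip1 and Cabyr. None of those searched held the cAMP response element TGACGTCA, which was in 1.79% of promoters, or the TATA box letters TATAAA, which were in 13.6%. Akap3 held TGATGTCA a second time, across its start. A second RefSeq start that the table lists for Akap4 has no match to the run within its window. These matches are letters in a sequence, and nothing was measured at them here.

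Ropn1 and Ropn1l, the ropporins that bind the anchoring proteins, are related genes that behaved differently. Ropn1 (chromosome 16, 34651211 to 34678610, plus strand, 6 exons, 875 bases) read 4167.5, 4376.1, 3838.4, 3276.9 and 3106 in WT and 2371.6, 2629.9, 2571.8, 1906.9 and 1231 in KI. Each KI library was below each WT library, and the log2 fold change was -0.85 (SE 0.18, adjusted p = 0.00301), or 1.80-fold lower. Ropn1l (chromosome 15, 31441210 to 31453689, minus strand, 5 exons, 957 bases) read 15585.2, 16563.3, 16206.3, 15194.7 and 14658.2 in WT and 14075.5, 15481.9, 15446.5, 14259.9 and 10447.1 in KI. Its genotypes overlapped, with 3 KI libraries under the lowest WT library. Its log2 fold change of -0.18 did not pass (SE 0.11, adjusted p = 0.295), and the 95% interval ran from -0.42 to 0.07. Within a library, the log2 ratio of Ropn1 to Ropn1l was lower in KI by a difference of -0.67 without overlap (exact permutation, p = 0.00794, adjusted p over 21 pairs = 0.0208), so that the change of Ropn1 differed from that of Ropn1l. The ratio of their counts was 0.238 in WT and 0.15 in KI.

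The upstream sequence of both is shown beside this difference, 100 bases before the RefSeq start at chr16:34651111-34651210 on the plus strand for Ropn1 and at chr15:31453690-31453789 on the minus strand for Ropn1l. Capitals mark the letters GTTGCC, a core of the sites of RFX factors.
Ropn1: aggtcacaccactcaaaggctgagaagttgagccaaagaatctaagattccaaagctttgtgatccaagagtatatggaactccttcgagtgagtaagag
Ropn1l: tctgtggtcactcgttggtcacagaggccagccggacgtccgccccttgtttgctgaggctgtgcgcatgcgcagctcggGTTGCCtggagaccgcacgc
Ropn1l held GTTGCC once, ending 15 bases before the start, and Ropn1 did not hold it in its window on either strand. The letters are in 12.5% of all promoters. Nothing was measured at them here, and a relation to the difference between Ropn1 and Ropn1l was not tested. Among the sheath promoters searched, the SOX letters AACAAT occurred only at Akap4, at 2 places, and are in 10.7% of all promoters. The first letters of the cAMP response element, TGACG, occurred only at Fsip2 and are in 20.8%.

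Cabyr encodes a calcium-binding sheath protein that becomes tyrosine phosphorylated during capacitation. It lies on chromosome 18 (12741355 to 12755142, plus strand, 6 exons, 2125 bases). Its normalized count was 6985.6, 7304.7, 6409.8, 5314 and 5859.9 in WT and 4126.4, 3966.5, 4022.5, 3973.4 and 3064.7 in KI, and the genotypes did not overlap. The log2 fold change was -0.73 (SE 0.11, adjusted p = 0.000215), or 1.66-fold lower. Relative to Akap3 in the same library Cabyr was lower in KI, with a log2 ratio of Akap3 to Cabyr that differed by 0.28 without overlap (exact permutation, adjusted p over 21 pairs = 0.0208).

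Fsip1 and Fsip2 share a name as interactors of the sheath and differed in what they showed. Fsip1 (chromosome 2, 118204888 to 118256966, minus strand, 11 exons, 1673 bases) read 1530.4, 1566.6, 1444.5, 1565.7 and 1511.6 in WT and 904, 961, 962, 1100.1 and 1010.2 in KI. It was tight within each genotype and did not overlap between them, and its log2 fold change of -0.63 (SE 0.08, adjusted p = 4.93e-05) is 1.55-fold, just past the fold threshold. Fsip2 (chromosome 2, 82943634 to 83008937, plus strand), whose loss in men gives malformed flagella, has by far the longest transcript here, with 23 exons and 21116 bases. It read 7565.1, 6961.3, 3990.6, 7996 and 10853 in WT and 5079.4, 4452.3, 4270.6, 8103.6 and 12914.6 in KI. The genotypes overlapped broadly, and the log2 fold change of -0.17 did not pass (SE 0.29, adjusted p = 0.730). The 95% interval of Fsip2 ran from -0.79 to 0.45 with genotype alone, and from -0.44 to 0.10 with the library number as a replicate block (SE 0.13, limma adjusted p = 0.333). The first interval holds the fold changes of Cabyr and Fsip1 and the second does not. The second interval and the pair counts that follow take same-numbered libraries as pairs, which the labels do not state. KI was below the WT library of the same number in 2 of 5 pairs for Fsip2 and in 5 of 5 for each of the other 6 genes.

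Fsip1, Ropn1l and Cabyr overlap other annotated genes. On the GENCODE vM21 annotation Fsip1 overlaps the miRNA gene Gm22800 and the transcript Gm29232 on its own strand, Ropn1l the pseudogene Gm6361 on its own strand and Cabyr the pseudogene Gm7599 on the opposite strand. Whether the counting used strand is not given in the sources used here, and reads shared with these genes cannot be told apart.

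Levels per length of transcript allow the 7 genes to be compared with each other. The length is that of a single annotated transcript per gene, which need not be the model on which the authors counted reads. In WT Ropn1l was highest, with 16344 ± 799 normalized counts per kb of transcript (SD, n = 5). Akap4 followed with 13804 ± 3006, and the ranges of these 2 overlapped, although Ropn1l was above Akap4 in 5 of 5 libraries. Akap3 had 5305 ± 372 and Ropn1 4289 ± 629, also with overlapping ranges. Cabyr had 2999.9 ± 382, Fsip1 911 ± 30.0 and Fsip2 354 ± 116, and none of these overlapped with its neighbour. In KI Ropn1l remained highest with 14569 ± 2152 per kb. Akap3 (3881 ± 326 per kb) and Akap4 (3778 ± 421 per kb) came next and could not be ordered, since Akap3 was above Akap4 in 2 of 5 KI libraries. Ropn1 (2448 ± 667 per kb) and Cabyr (1803 ± 204 per kb) overlapped, as did Fsip1 (590.3 ± 43.8 per kb) and Fsip2 (329.8 ± 174 per kb). Thus in WT the per-kb level of Akap4 lay beside that of Ropn1l, and in KI it lay beside that of Akap3.

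**Figure D2:**
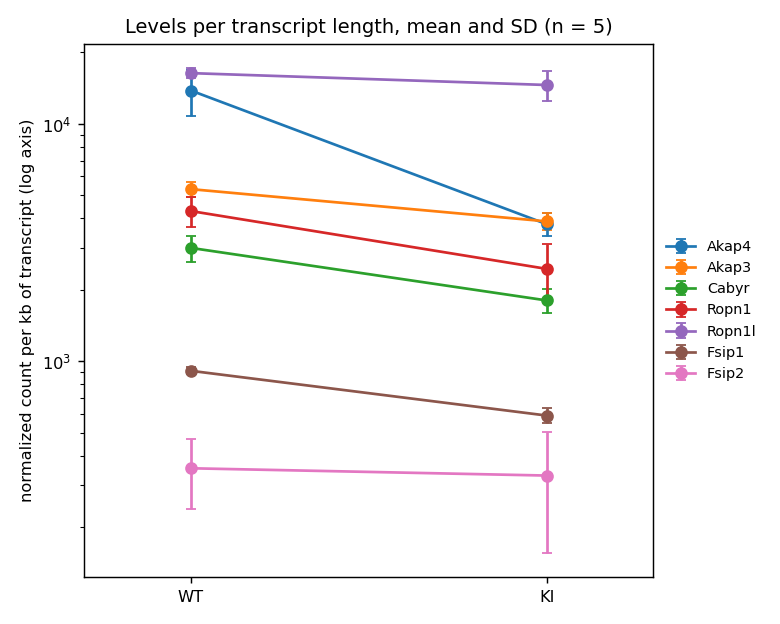
Mean normalized count per kb of transcript of each sheath gene in WT and KI on a log axis, with 1 line per gene and bars for the SD of 5 libraries. The line of Akap4 drops from 13804 to 3778 and meets that of Akap3, while Ropn1l stays at the top in both genotypes.

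The 7 genes together took 0.568% ± 0.045 of the reads on genes in WT and 0.374% ± 0.018 in KI (SD, n = 5 each). The share was lower in every KI library than in any WT library (exact permutation, p = 0.00794, the smallest that 5 against 5 libraries can give). Akap4 alone made up 42.9% ± 5.2 of the reads of the 7 genes in WT and 21.2% ± 2.0 in KI (exact permutation, p = 0.00794). Relative to each of the other 6 genes in the same library Akap4 was lower in KI, from a ratio of counts of 10.4 in WT to 5.18 in KI for Ropn1 and of 5.42 to 1.69 for Fsip2 as the extremes (exact permutation, adjusted p over 21 pairs at most 0.0333). These ratios did not overlap between genotypes except that of Akap4 to Fsip2. Ropn1l was higher relative to Cabyr by 0.55 without overlap (adjusted p = 0.0208 by the exact permutation test). Akap3 and Fsip1 were lower relative to Ropn1l, with log2 differences of -0.27 and -0.45 and with overlap (exact permutation, adjusted p = 0.0333 and 0.0455). In total 11 of the 21 pairs passed. The pairs of Fsip2 with genes other than Akap4 did not pass, nor did those of Ropn1 with Cabyr, Fsip1 or Akap3, of Fsip1 with Cabyr, or of Akap3 with Fsip1.

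Spermatid markers also moved between the genotypes. All 8 elongating spermatid markers were called lower, against 8.22% of genes. The markers are the protamines and transition proteins Prm1, Prm2, Prm3, Tnp1 and Tnp2 with Smcp, Oaz3 and Tssk6. Their median log2 fold change was -2.62, and their summed normalized count was 200155 to 369794 in WT and 23701 to 55502 in KI. Of the 8 round spermatid markers 0 were called by limma, edgeR or DESeq2 at both thresholds. At an unadjusted limma p under 0.05, 4 were lower. At the adjusted p alone 3 (Catsper3, Spaca1 and Zpbp) were lower, against 13.3% of genes. The median of the 8 markers was -0.36, and their sum ranged from 25833 to 28866 in WT and from 16320 to 24572 in KI. Of the 10 spermatocyte markers 0 were called by any of the 3 tools at both thresholds, and 2 were lower at the unadjusted p. At the adjusted p alone 1 (Spo11) was lower, a share near the 13.3% of all genes. The median of the 10 markers was -0.11 and their sum ranged from 25381 to 33654 in WT and from 24981 to 28759 in KI. The paper states that homozygous KI mice lack elongating spermatids and mature sperm, with round spermatids that fail to elongate. The cells compared therefore differ between the genotypes. In RNA of whole preparations, fewer cells of a type and less RNA per cell cannot be told apart. The part of the loss of elongating spermatid transcripts in the sheath results was not tested.

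Each sheath gene was therefore also measured against the round spermatid and spermatocyte markers of the same library, as its log2 value minus the mean log2 value of the markers, with adjusted p over the 14 combinations. Akap4 was lower in KI against both, with differences of -1.49 relative to round spermatid markers and -1.74 relative to spermatocyte markers (exact permutation, adjusted p = 0.0222 for each, no overlap). Ropn1 was lower against both as well, with differences of -0.49 and -0.74 (exact permutation, adjusted p = 0.0222 for each, no overlap). Cabyr was lower, with a difference of -0.37 relative to round spermatid markers (adjusted p = 0.037 by the exact permutation test, with overlap) and of -0.63 relative to spermatocyte markers (adjusted p = 0.0222, no overlap). Akap3 and Fsip1 passed only against spermatocyte markers, with -0.35 and -0.52 (exact permutation, adjusted p = 0.0278 for each), and had -0.09 and -0.27 against round spermatid markers (exact permutation, adjusted p = 0.606 and 0.211). Ropn1l was higher relative to round spermatid markers by 0.18 (exact permutation, adjusted p = 0.0278), a value that did not pass without Catsper3 (0.15, adjusted p = 0.0864), and differed by -0.07 against spermatocyte markers (adjusted p = 0.676 by the exact permutation test). Fsip2 passed against neither list, with 0.19 and -0.07 (exact permutation, adjusted p = 0.803 and 0.881). In the limma fit with libraries scaled on the same markers, Akap3 against spermatocyte markers (adjusted p = 0.135), and Cabyr and Ropn1l against round spermatid markers (adjusted p = 0.0578 and 0.308), did not pass. Rescaling all libraries on the round spermatid markers left Akap4 as the 1 sheath gene called lower, and rescaling on library totals left 2, Akap4 and Ropn1. Under both of these scalings the fold changes of Ropn1l and Fsip2 were above 0.

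**Figure D3:**
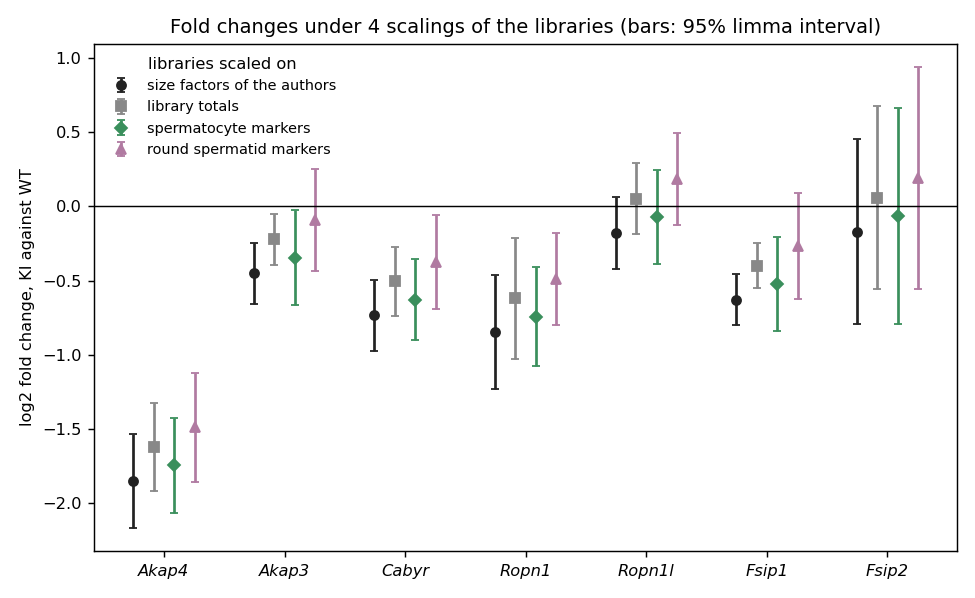
Log2 fold change of each sheath gene, KI against WT, when libraries are scaled on the authors' size factors, on library totals, on spermatocyte markers or on round spermatid markers, with bars for the 95% limma interval. Akap4 lies between -1.85 and -1.49 in all 4, whereas Ropn1l and Fsip2 lie on both sides of 0.

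The division between libraries 1 to 3 and libraries 4 and 5 ran through several sheath genes in both genotypes. Fsip2 was higher in libraries 4 and 5 by 0.90 on the log2 scale (SE 0.17, limma adjusted p = 0.00162), which 1.55% of the genes tested were at both thresholds. In KI its level was 4270.6 to 5079.4 in libraries 1 to 3 and 8103.6 to 12914.6 in libraries 4 and 5, and in WT it was 3990.6 to 7565.1 and 7996 to 10853. Ropn1, Akap4 and Cabyr went the other way: the log2 difference of libraries 4 and 5 from 1 to 3 was -0.54 for Ropn1 (limma adjusted p = 0.00225), -0.41 for Akap4 (adjusted p = 0.00889) and -0.26 for Cabyr (adjusted p = 0.0405), each under the 1.5-fold threshold. Akap3, Ropn1l and Fsip1 did not pass. At both thresholds 639 of the 15389 genes tested were lower in libraries 4 and 5, and 239 were higher. The share of all genes lower there at the adjusted p alone is not given here. The effect of genotype did not pass a test of difference between the sets for any of the 7 genes (limma interaction, adjusted p 0.318 to 0.817). In libraries 1 to 3 alone the same 4 genes were called lower, with log2 fold changes of -1.98 for Akap4, -0.77 for Cabyr, -0.71 for Ropn1 and -0.68 for Fsip1. In libraries 4 and 5 alone the values were -1.65 for Akap4, -0.68 for Cabyr, -1.06 for Ropn1 and -0.54 for Fsip1, the last under the fold threshold. Fsip2 had -0.37 in libraries 1 to 3 and 0.14 in libraries 4 and 5, neither past the threshold.

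**Figure D4:**
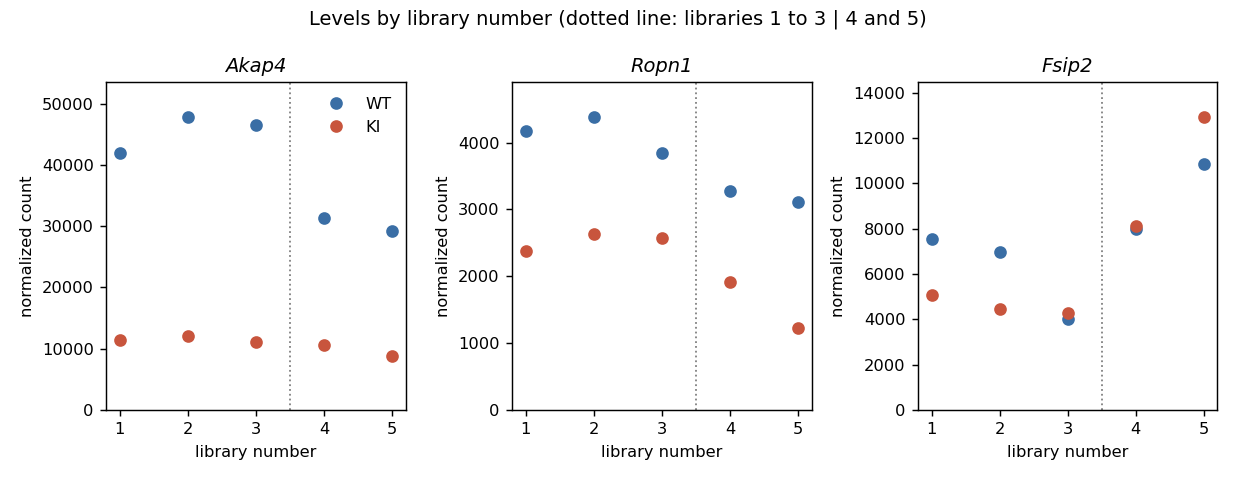
Normalized counts of Akap4, Ropn1 and Fsip2 against library number for WT and KI, with a dotted line between libraries 1 to 3 and libraries 4 and 5. Akap4 and Ropn1 are lower to the right of the line in each genotype, and Fsip2 is higher there, from 8103.6 to 12914.6 in KI.

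After removing the genotype means, the log2 levels of Ropn1 and Ropn1l followed each other most closely over the 10 libraries (Pearson r = 0.94), and those of Cabyr followed Ropn1 (r = 0.85) and Akap4 (r = 0.83). Fsip2 ran opposite to Ropn1 (r = -0.83), Ropn1l (r = -0.82) and Akap4 (r = -0.74). These values share the library sets described above and are given as a description. Over the 10 libraries, with genotype left in, the 5 genes of the table most like Akap4 were Gm10731, Ppp2r2b, Chl1, 4930571K23Rik and Mfap3l, with r of 0.998 to 0.999. Their log2 fold changes ran from -1.63 to -3.11, so that they were called lower with it. Ppp2r2b, a regulatory subunit of protein phosphatase 2A, was also the most alike with genotype means removed (r = 0.988), followed by Spata7, Tex50, Mcu and Galntl5 (r of 0.980 to 0.987). The gene most like Akap3 was Bag5, a co-chaperone of HSP70, both with genotype left in (r = 0.995) and with it removed (r = 0.970). Clip4, Fam76a, Dnajb14 and Fkbpl came next with genotype left in, and Ccdc30, Rffl, Mttp and Fkbpl with it removed.

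Transcripts of most of the other sheath proteins listed were lower in KI as well. Of 7 sheath partners 5 were called lower, against 8.22% of genes. The count was 3 with library totals and 2 with round spermatid markers as the scale. In this list and in those of the glycolytic enzymes, the outer dense fibers and the CatSper channel, 0 genes were called higher by limma, edgeR or DESeq2, and 0 were higher at an unadjusted p under 0.05. The sheath partners had a median log2 fold change of -0.73. Gapdhs, the sperm glyceraldehyde-3-phosphate dehydrogenase bound to the sheath, fell from 20973 to 4693 normalized counts on average (log2 fold change -2.13, adjusted p = 3.73e-07). Fscb, a calcium-binding protein that binds CABYR, had -1.26, Spa17, a further protein with the kinase-docking domain, had -0.90, and Akap14 had -0.73. Gstm5, a glutathione transferase, had -0.71. Eno4, the enolase of the sheath, was lower at the adjusted p alone with -0.29, and Rhpn1, which binds ropporin, had 0.21 and did not pass.

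Glycolytic enzymes held in or near the sheath were called lower in 6 of 14, against 8.22% of genes, and lower at the adjusted p alone in 10 of 14, against 13.3%. Their median log2 fold change was -0.45. After Gapdhs, which is in both lists, the largest falls were of Gpi1 (-1.68), which makes fructose 6-phosphate, Hk1 (-1.61), the hexokinase at the head of the pathway, and Pgk2 (-1.07), the phosphoglycerate kinase of germ cells. Pfkm (-0.0011), Ldha (-0.09), Ldhc (-0.29) and Pgam2 (-0.32) did not pass. In the outer dense fibers, which the sheath surrounds in the tail, 4 of 7 genes were called lower, against 8.22% of genes: Odf1 (-2.55), Odf3b (-1.54), Odf2 (-0.89) and Odf4 (-0.73). The count was 2 when libraries were scaled on round spermatid markers. Of 12 genes of the CatSper calcium channel, which sits in the membrane of the principal piece, 2 were called lower against 8.22% of genes, with a median of -0.28: Efcab9 (-0.90) and Catsperg1 (-0.59). That count became 1 without WT library 2 and 4 without WT library 3. It was 3 with TMM factors, by limma or edgeR, and 1 with library totals, the upper quartile, spermatocyte markers or a pseudocount of 10. It was 0 by limma with round spermatid markers, a list that also holds Catsper3, so that this scale is not independent of the channel genes.

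Genes that act on or with the anchoring function were mixed. Of 7 genes of protein kinase A and soluble adenylyl cyclase, which makes the cAMP that activates the kinase, 1 was called lower, a share near the 8.22% of all genes. The count called higher was 0 by limma, edgeR and DESeq2, with 2 higher at the unadjusted p. Prkar2a, the type II regulatory subunit that docks on AKAP3 and AKAP4, fell from 3680 to 911 normalized counts (log2 fold change -1.97, limma adjusted p = 5.88e-07). The catalytic subunit gene Prkaca (-0.08) and the type I subunit gene Prkar1a (-0.09) did not pass, and Adcy10, the cyclase, was lower at the adjusted p alone with -0.58. Prkar1b, a further type I subunit gene, was higher at the adjusted p alone with 0.42. The count called lower was 2 in libraries 1 to 3 alone and without WT library 3, WT library 4, KI library 4 or KI library 5. Of 13 other anchoring protein genes 3 were called lower and 2 higher, against 8.22% and 6.13% of genes, with a median of 0.05. The lower count was 1 with round spermatid markers as the scale and 1 in libraries 4 and 5 alone. Akap1, the anchor of the mitochondrial surface, had -1.36, Akap12 had -1.03 and Akap14 had -0.73, whereas Akap2 had 1.23 and Akap6 0.70.

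Transcripts of somatic cells of the testis were present and some were higher in KI. Of 7 Leydig cell markers 3 were called higher by limma and edgeR and 5 by DESeq2, against 6.13% of genes by limma (sum 10290.5 to 18066 in WT and 14779 to 25692 in KI), and of 8 macrophage markers 4 were called higher (sum 654 to 878 in WT and 927 to 1332 in KI). Of 5 peritubular myoid markers tested 2 were called higher and 1, Actg2, lower by limma, against 6.13% and 8.22% of genes. The sum of the list was 2746 to 4207 in WT and 1146 to 1619 in KI. Actg2 made up most of that sum, and the other 5 genes of the list summed to 120.2 to 208 in WT and 191 to 236 in KI. Of 8 Sertoli and 7 spermatogonial markers 0 were called by limma, edgeR or DESeq2, and 1 of each list was higher at an unadjusted p under 0.05. The Sertoli sum was 2350.5 to 3744 in WT and 2568 to 4173 in KI. The part of these cells in the sheath results was not tested.

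**Figure D5:**
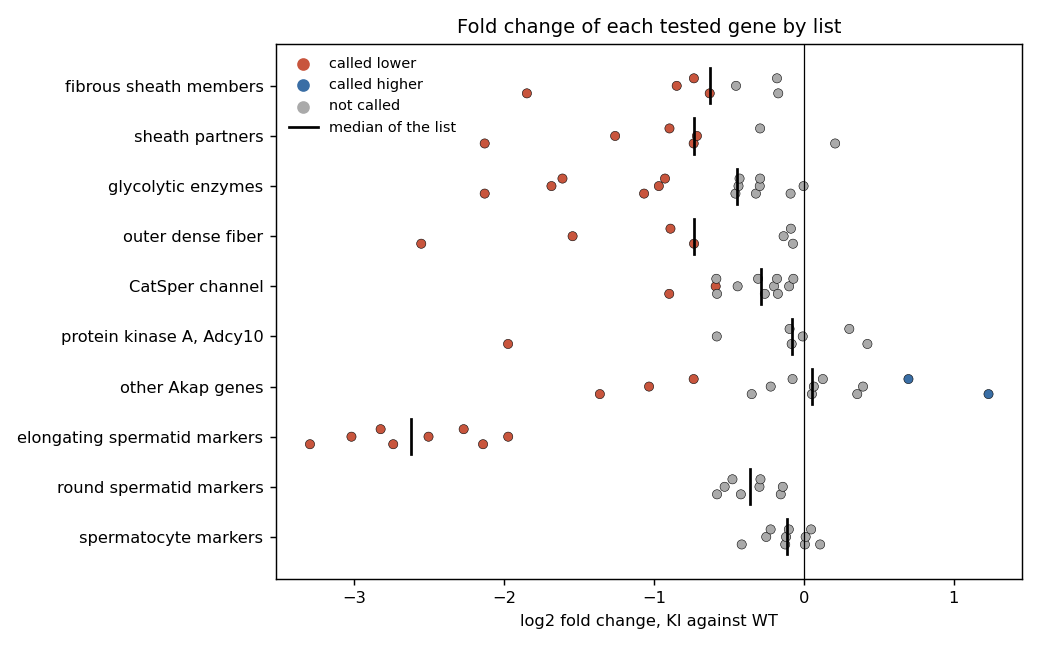
Log2 fold change, KI against WT, of each tested gene in the sheath list, 6 lists of related tail and kinase genes and 3 lists of germ cell markers, with 1 point per gene, red for called lower, blue for called higher, grey for not called, and a bar at the median. The 7 sheath genes have a median of -0.63, between the elongating spermatid markers at -2.62 and the spermatocyte markers at -0.11.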

How the data were processed

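Values are the deposited signal per gene, a count divided by the DESeq2 size factor of the library. Per the paper's methods the authors trimmed adapters, aligned the reads to mm10 with STAR in Partek Flow, quantified RefSeq_v91 genes by the E/M model of Partek and ran DESeq2. Tool versions are not given in the sources used here. Whole reads were recovered: 100% of values under 5000 reads were whole multiples, within 0.1 read, of the value of 1 read. The end of a gene was taken as 1 base before the end in the table, which matched the RefSeq end on GRCm38, the build that mm10 names. Transcript lengths and overlapping genes were taken from GENCODE vM21, with the longest transcript for Fsip2, and promoters from a RefSeq table of GRCm38.p6, which had entries for 5 of the 7 genes.

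Libraries were grouped by their labels. The main test was limma (version 3.58.1, R 4.3.3) with a variance trend on log2(value + 1), genotype alone, on genes kept by edgeR's filterByExpr (version 4.0.16). The same tests on recovered reads by edgeR's quasi-likelihood method and DESeq2 (version 1.42.0) were alternatives. The thresholds are those of the study. For ratios within a library the exact permutation test, two-sided, took every arrangement of the 10 libraries into groups of 5, with Benjamini-Hochberg adjustment. Further alternatives were other scalings, pseudocounts, filters and thresholds, a term for the library sets, each set alone and each library left out. Steps across all genes were tested on simulated data.

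The members and lists were chosen with earlier results of these data known, so no list was tested. The genes named are the 7 sheath genes, Ddx25, up to 4 called genes of each list with the largest change, list genes needed to read a count, and for Akap4 and Akap3 the 5 genes most correlated with each. Gstm5, Eno4, Ldhc, Pgam2, Ldha, Pfkm, Rhpn1, Prkaca, Prkar1a, Prkar1b, Adcy10 and Akap6 were named to read a count, as were the cell type markers named.

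With the genotype means taken out, same-numbered WT and KI libraries had correlations across genes of 0.306, 0.105, 0.280, 0.216 and 0.462. WT and KI libraries of different numbers in the same set had a mean correlation of 0.134, above that of number 2. A fit with the number as a block was made, although these values do not show that every number pairs the libraries. The labels do not say what a number shares. Replicates were not copies of each other, with a chi-square per degree of freedom of 2.67 to 46.4.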

Additional observations from a re-analysis of the deposited data

Results flagged for a closer look

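Each of the 14 sets of 5 levels (7 genes in 2 genotypes) was examined for a library far from its group, and 2 had one, both KI library 5. Chance gives about 1 such set in 20, but the sets share libraries and the 2 found are not independent. The levels of Ropn1l and Cabyr were correlated after removing the genotype means (Pearson r = 0.77). Ropn1l read 10447.1 there, with 14075.5 or more in the other KI libraries, and without this library its log2 fold change was -0.08 (limma adjusted p = 0.612) and still not past the threshold. Cabyr read 3064.66 in KI library 5, with 3966.5 or more in the others, and without it the log2 fold change was -0.65 (limma adjusted p = 0.00021) and the gene was still called lower. Ropn1 (1231), Akap4 (8848) and Akap3 (10864.8) were also lowest in KI library 5 and Fsip2 (12914.6) highest there. Without this library Fsip2 had a log2 fold change of -0.43 (limma adjusted p = 0.221). The test of a different genotype effect in the 2 sets of libraries found 0 of 7 genes.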

How the results depend on the processing

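The number of sheath genes called lower was 3 to 5 in 26 of 28 alternatives, 2 with library totals and 1 when libraries were scaled on round spermatid markers, and it was 4 without any 1 library. Akap4 was called lower in 26 of 26 alternatives, at -1.98 to -1.49. Fsip1 lost its call with library totals (-0.40), the upper quartile (-0.53), spermatocyte markers (-0.52), round spermatid markers (-0.27) and libraries 4 and 5 alone (-0.54), Cabyr with library totals (-0.50) and round spermatid markers (-0.37), and Ropn1 with round spermatid markers (-0.49). Fsip2 turned to 0.059 with library totals, 0.19 with round spermatid markers and 0.14 in libraries 4 and 5 alone, and Ropn1l to 0.051 and 0.18 in the first 2 of these. These scalings moved the median log2 fold change of all genes from 0.03 to 0.25 (library totals), 0.12 (upper quartile), 0.13 (spermatocyte markers) and 0.38 (round spermatid markers), and the share of higher among all calls from 42.7% to 73.1%, 55.8%, 52.8% and 83.9%. It was 30.3% in libraries 4 and 5 alone.

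Of all genes, 1265 were called lower and 944 higher. The lower count was 789 with library totals, 633 with round spermatid markers and 2044 at the adjusted p alone. The higher count was 2145, 3289 and 1485 in these, and 558 with at least 50 reads on average, 472 in libraries 4 and 5 alone and 605 at an adjusted p under 0.01. Leaving out 1 library gave 1130 to 1296 lower and 809 to 1012 higher. The fit with the library number as a block called 1343 lower and 1067 higher and changed no call of a sheath gene. The Akap4 to Akap3 difference of -1.40 had p = 0.0625 with labels exchanged within pairs and, at -1.48, p = 0.1 in libraries 1 to 3, each the smallest p that such an exact permutation test can give. It was -1.49 to -1.34 without 1 library. Ropn1l against round spermatid markers was 0.15 without Catsper3 (exact permutation, adjusted p = 0.0864). Counts of the other lists that moved are given beside them. Causes of these changes were not tested. The depth of the libraries limits none of the 7 genes, which all had at least 934 reads. For Fsip2 the spread between libraries is the limit with genotype alone, and much of it follows the library sets and numbers: its SE was 0.29 without and 0.13 with the block.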
